A study of Mus musculus with 6 samples.

Results

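The 19 genes described here are those of the G protein-coupled receptor superfamily that carry a Gpr number, together with the cannabinoid receptor gene Cnr2 and the sphingosine-1-phosphate (S1P) receptor genes S1pr2 to S1pr5, as far as they gave a signal in resting splenic CD8+ T cells (CD8-TC). Of the 19938 genes that a probe set of the array reads alone, 75 carried such a name, and Gpr83 was left out by the rule. The 19 were chosen by their signal, which in 3 or more of the 6 arrays had to be no lower than the median of that array's probe sets. Of the other genes, 46 lay under that median in every array and 10 reached it in 1 or 2 arrays. Differences between genotypes did not enter the choice, apart from Gpr15, which reached the median in the 3 WT arrays and in 0 of the Runx3-/- arrays. Gpr15 therefore had to read lower in Runx3-/- cells, and its difference is a description.

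G protein-coupled receptors sit in the cell membrane and pass signals from outside the cell to heterotrimeric G proteins. Genes with a Gpr number were named before a ligand was known, and several of them have since been tied to lipids. Lymphocytes use such receptors to find their place: S1P draws them out of lymphoid organs, oxysterols position them within the spleen through Gpr183, and Gpr15 guides T cells to the large intestine. The name does not hold for all of the 19, since Gpr89, Gpr107, Gpr108, Gpr137b-ps, Gpr155 and Gpr180 were listed here as proteins of Golgi, lysosome and other inner membranes or relatives of such proteins. Gpr137b-ps is annotated in RefSeq as a transcribed pseudogene.

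The samples were freshly isolated splenic CD8-TC of 6 male mice of the outbred ICR stock aged 6 weeks, each on an array of its own. In the WT group (n = 3) the genotype was Runx3 +/+, and in the other group (n = 3) it was Runx3 -/-, a loss of the RUNX family transcription factor Runx3 for which the labels name no allele. All cells were selected with anti-CD8 magnetic beads. For the Runx3-/- group a FACS sort that took away CD11c+CD8+ dendritic cells is described as a further step, while another label speaks of FACS for every sample. Whether WT cells were sorted too is thus uncertain, and if they were not, purification and genotype cannot be told apart.

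Values are log2 signals normalized by RMA (Robust Multichip Average), and a difference is Runx3-/- minus WT on that scale. The Runx3 probe set did not fall (0.16 ± 0.16 SE, limma adjusted p = 0.559, and -0.012 without Runx3-/- replicate 3), so that it gives no check of the genotype, and the sources used here do not say which part of the transcript it reads. Cd4 was higher by 2.57 and Itgae, which encodes the CD103 antigen, fell by 2.61, both without overlap between the genotypes (limma adjusted p = 2.36e-05 and 9.91e-05). In the marker lists below, a fall or rise means an adjusted p under 0.05 in limma. Of all 9924 genes tested, 6.00% were lower and 5.63% higher by that rule. All 11 T cell markers on the array were tested, and 3 of them rose. Of the markers of other cells, 13 of 13 B cell genes and 14 of 14 macrophage genes fell, and 7 of 8 regulatory T cell genes rose. Of the tested markers of dendritic cells 4 of 11 fell, and of erythroid cells 4 of 5 fell and 1 rose. Of 6 tested NK cell markers 1 fell and 1 rose, and of 3 neutrophil markers 2 fell. The filter fixed the direction of some of these, which reached the array median in 1 genotype only: 2 of the B cell falls, 2 of the erythroid falls and the erythroid rise, both neutrophil falls and 3 of the regulatory T cell rises. The part of these lists in the receptor differences was not tested. In such bulk samples, fewer cells of a type and less RNA per cell cannot be told apart.

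**Figure D1:**
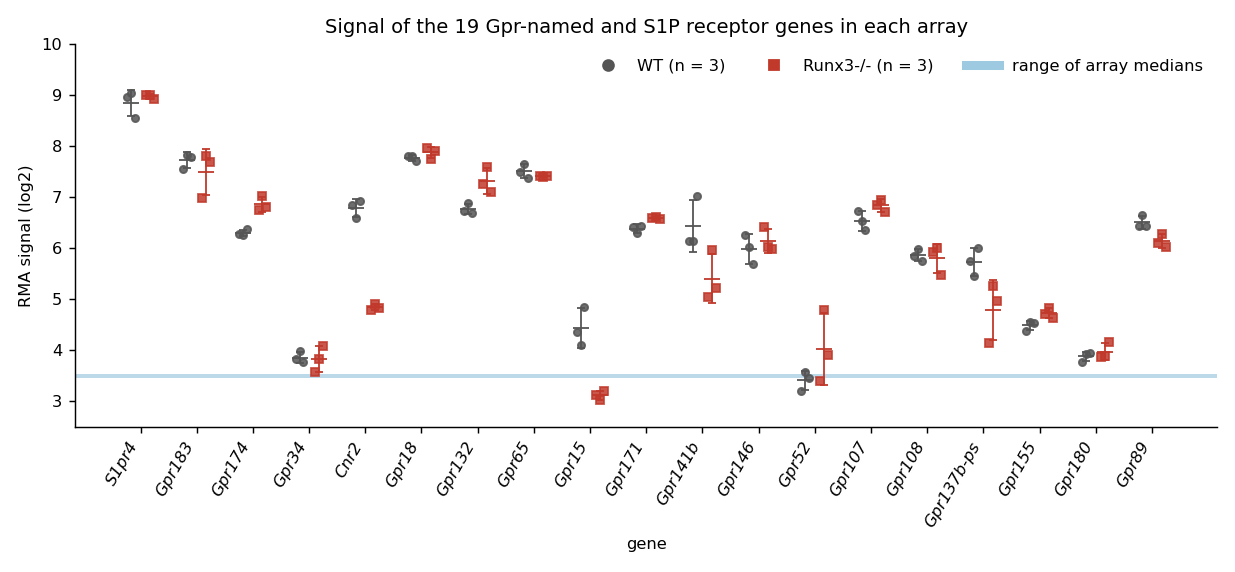
Vertical axis, RMA signal (log2) of the 19 genes (horizontal axis, grouped by the ligand or role) in each WT array (grey circles) and Runx3-/- array (red squares), with mean and SD of n = 3 mice, and the range of the array medians as a blue band. Cnr2 lies at 6.58 or above in WT and at 4.91 or below in Runx3-/- arrays, and Gpr15 falls under the band in the Runx3-/- arrays.

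Across these receptors, loss of Runx3 went with a lower signal of Cnr2 and Gpr15 and a higher signal of Gpr174 and Gpr132. The 4 genes past the threshold, an adjusted p under 0.05 in limma over all 9924 genes tested, were 21.1% of the 19, where 11.6% of all tested genes passed. Gpr15, whose direction the filter fixed, is among these 4 and raises that share. In the downward direction 2 genes passed, or 1 of 18 without Gpr15, against 6.00% of all tested genes, and in the upward direction 2 genes against 5.63%. The median difference was 0.09 over the 19 genes and 0.0062 over all tested genes. No test of the group was made, and nothing particular to the group is read from these counts. The split moved with the scaling, to 5 lower and 2 higher after quantile normalization and to 4 lower and 2 higher after centring each array on its median.

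**Figure D2:**
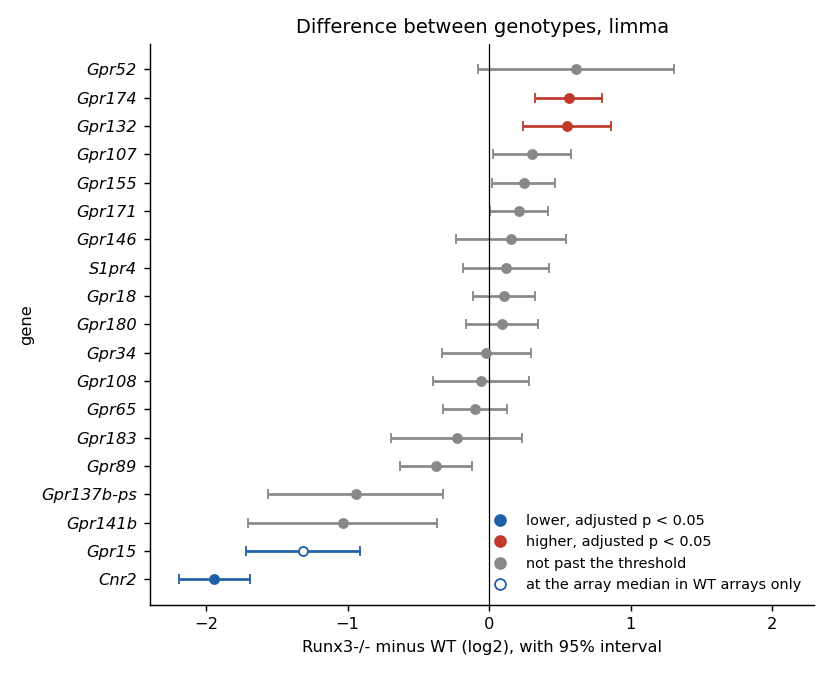
Difference between genotypes (horizontal axis, Runx3-/- minus WT, log2) of each gene (vertical axis) with its 95% interval from limma over n = 3 mice per group. Cnr2 at -1.94 and Gpr15 at -1.32 (open circle, at the array median in WT arrays only) are in blue, Gpr174 at 0.56 and Gpr132 at 0.55 in red, and the 15 genes not past the threshold in grey.

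Cnr2 encodes CB2, the cannabinoid receptor of leukocytes, which is well known from B cells. Its signal was 6.84, 6.58 and 6.92 in WT mice, against 4.79, 4.91 and 4.82 in Runx3-/- mice. The groups lay far apart, and the Runx3-/- arrays differed little among themselves (SD 0.061, against 0.18 in WT, n = 3). Cnr2 fell by 1.94 ± 0.11 (SE), which is 3.84-fold, and its 95% interval ran from -2.20 to -1.69 (limma adjusted p = 6.16e-05). Under all 16 alternative settings tried it stayed past the threshold, between -2.04 and -1.87. In the same arrays the mean signal of the 13 B cell markers ran from 6.28 to 7.01 in WT and from 4.24 to 4.44 in Runx3-/- samples, and none of the 13 was under the array median throughout. That of the 14 macrophage markers ran from 7.12 to 7.29 and from 4.27 to 4.98. The part of these cells in the Cnr2 difference was not tested.

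Gpr18 and Gpr55 were grouped with Cnr2 by ligand. Gpr18, for which endocannabinoid-like lipids have been proposed as ligands, gave 7.80, 7.81 and 7.70 (WT) against 7.96, 7.75 and 7.91 (Runx3-/-). These values overlapped, with a difference of 0.11 (95% interval from -0.11 to 0.32, limma adjusted p = 0.523). Gpr55, a receptor for lysophosphatidylinositol, reached the array median in 1 WT array only, so that it was not among the 19 and its values are a description. It gave 3.44, 3.65 and 3.15 (WT) against 2.80, 2.88 and 2.74 (Runx3-/-), a difference of -0.61 (adjusted p = 0.0231), at signals close to or under the array median. The call was lost without moderation of variances (adjusted p = 0.137), without WT replicate 1 (0.0772) and without Runx3-/- replicates 1, 2 or 3 (0.0579, 0.0565 and 0.079).

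Gpr15 encodes a receptor that brings T cells to the large intestine. It gave 4.35, 4.10 and 4.85 (WT) against 3.12, 3.03 and 3.20 (Runx3-/-), so that all Runx3-/- values were under the array median, where a fold may be understated. The difference was -1.32 ± 0.18 (SE), a 2.49-fold lower signal (adjusted p = 0.00283 in the fit over all genes). Without moderation of variances the adjusted p was 0.0877. Gpr171, a receptor for a neuropeptide that has also been studied as an inhibitory receptor of T cells, gave 6.42, 6.29 and 6.44 (WT) against 6.59, 6.62 and 6.57 (Runx3-/-). These groups did not overlap, yet the difference was small (0.21, 95% interval from 0.01 to 0.41) and did not pass (adjusted p = 0.166).

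Gpr174, a lysophosphatidylserine receptor of lymphocytes, rose. It gave 6.27, 6.25 and 6.37 (WT) against 6.75, 7.02 and 6.81 (Runx3-/-), without overlap. The rise was 0.56 ± 0.10 (SE), or 1.48-fold, and its 95% interval ran from 0.33 to 0.80 (limma adjusted p = 0.0117), and it lost its call without moderation of variances (adjusted p = 0.0824). Gpr34, which responds to the same lipid, gave 3.82, 3.97 and 3.76 (WT) against 3.58, 3.82 and 4.09 (Runx3-/-), near the array median and with overlap. Its difference of -0.021 had a 95% interval from -0.34 to 0.29, and its sign turned without WT replicate 2 (0.040) or Runx3-/- replicate 1 (0.10). P2ry10, a further lysophosphatidylserine receptor outside the Gpr names, gave 0.11 (adjusted p = 0.656), and -0.0265 without WT replicate 2. Whether these 3 differences differ from each other was not tested.

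Gpr132, which has been tied to lysophospholipids, oxidized fatty acids and acid sensing, gave 6.73, 6.88 and 6.68 (WT) against 7.25, 7.59 and 7.10 (Runx3-/-). All Runx3-/- values were above all WT values, and the rise was 0.55 ± 0.14 (SE), or 1.46-fold (95% interval from 0.24 to 0.86, limma adjusted p = 0.0375). The call did not hold under 7 of the 16 alternatives. The adjusted p was 0.0567 without a filter on signal and 0.166 without moderation of variances. It was 0.111, 0.0589 and 0.0814 without WT replicates 1, 2 and 3, and 0.0688 and 0.0873 without Runx3-/- replicates 1 and 2, although the difference stayed between 0.41 and 0.66. Gpr65, the acid-sensing receptor also known as TDAG8, gave 7.50, 7.65 and 7.37 (WT) against 7.41, 7.39 and 7.41 (Runx3-/-), with overlap and a difference of -0.10 (95% interval from -0.33 to 0.12, adjusted p = 0.551). The T cell marker list averaged 9.17 to 9.39 in WT and 9.44 to 9.64 in Runx3-/- arrays, and the regulatory T cell list 4.19 to 4.22 and 5.69 to 6.00. The part of these shifts in the rises of Gpr174 and Gpr132 was not tested.

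**Figure D3:**
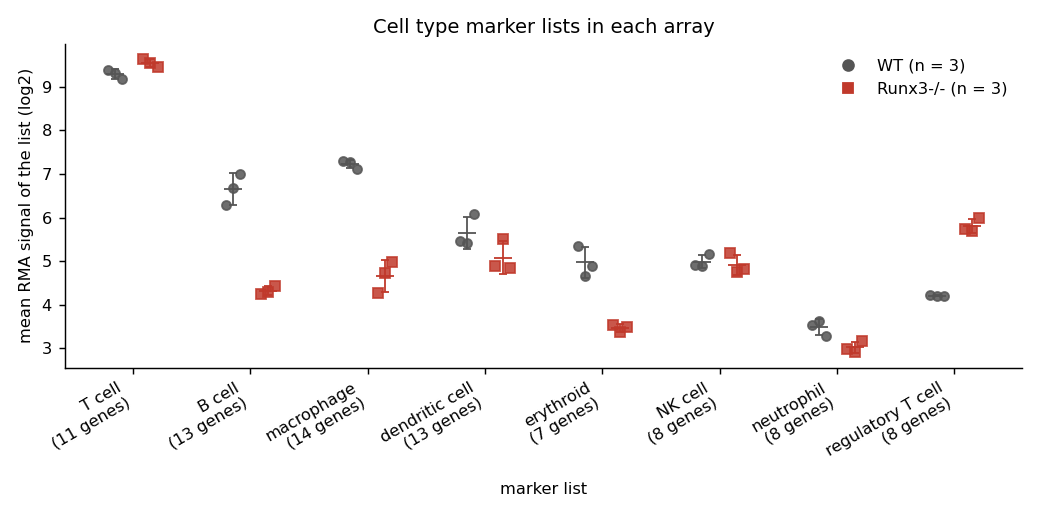
Vertical axis, mean RMA signal (log2) of 8 cell type marker lists (horizontal axis, with the number of genes on the array). Grey points are WT arrays and red points Runx3-/- arrays, with mean and SD of n = 3 mice. B cell and macrophage markers lie lower in all Runx3-/- arrays, regulatory T cell markers higher, and NK cell and dendritic cell markers overlap between genotypes.

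For the 4 genes past the threshold, the promoter windows of RefSeq (build GRCm38.p6, from 250 bases before to 50 bases after a gene's start) are given, since Runx3 binds DNA at RUNX motifs. The letters searched, on both strands, were TGTGGT, found in 16.8% of all 32851 windows of the table, then TGTGGC, found in 18.9%, also TGCGGT, found in 6.45%, and lastly TGCGGC, found in 12.4%. Matches are in capitals, and no match shown shares letters with another.
Cnr2 promoter window, chr4:135894939-135895238, plus strand: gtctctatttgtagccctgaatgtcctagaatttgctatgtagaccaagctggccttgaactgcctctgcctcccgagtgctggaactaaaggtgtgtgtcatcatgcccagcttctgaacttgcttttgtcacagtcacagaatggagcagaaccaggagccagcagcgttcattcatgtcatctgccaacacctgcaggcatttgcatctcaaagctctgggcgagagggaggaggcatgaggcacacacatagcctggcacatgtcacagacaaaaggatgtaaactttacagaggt
Gpr15 promoter window, chr16:58718823-58719122, minus strand: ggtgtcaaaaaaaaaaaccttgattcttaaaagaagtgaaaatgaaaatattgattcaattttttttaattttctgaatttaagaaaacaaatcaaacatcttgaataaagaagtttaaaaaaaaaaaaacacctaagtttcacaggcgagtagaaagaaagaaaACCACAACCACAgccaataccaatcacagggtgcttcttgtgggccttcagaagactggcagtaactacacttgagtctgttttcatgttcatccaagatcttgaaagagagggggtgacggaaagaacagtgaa
Gpr174 promoter window, chrX:107284096-107284395, plus strand: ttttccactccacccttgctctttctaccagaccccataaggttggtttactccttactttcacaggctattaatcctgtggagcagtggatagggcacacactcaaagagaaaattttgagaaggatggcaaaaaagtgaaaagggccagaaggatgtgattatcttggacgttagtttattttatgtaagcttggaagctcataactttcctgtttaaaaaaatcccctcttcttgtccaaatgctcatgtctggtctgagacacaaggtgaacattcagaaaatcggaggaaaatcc
Gpr132 promoter window, chr12:112860867-112861166, minus strand: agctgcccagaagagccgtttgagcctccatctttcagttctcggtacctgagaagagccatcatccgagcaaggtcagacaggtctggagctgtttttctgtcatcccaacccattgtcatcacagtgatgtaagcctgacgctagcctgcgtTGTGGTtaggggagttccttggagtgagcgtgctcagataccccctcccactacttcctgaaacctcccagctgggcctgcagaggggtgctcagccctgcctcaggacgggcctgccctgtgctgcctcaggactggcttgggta
The Gpr15 window held 2 adjoining matches, which read as ACCACA because they lie on the opposite strand and begin 85 and 79 bases before the start. The Gpr132 window held 1 match, 96 bases before the start. The Gpr174 window and both windows of Cnr2, of which the first is shown, held 0, which says only that these letters are not in these stretches. Of the 19 genes, 15 had a window in the table, and 9 of their 19 windows (47.4%) held a match, where 45.2% of all windows of the same length did. A match is a description of the sequence and not a site shown to bind Runx3.

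S1pr4 is an S1P receptor known mainly from leukocytes. It gave 8.95, 9.04 and 8.56 (WT) against 9.01, 8.99 and 8.91 (Runx3-/-), with overlap and with WT replicate 3 lowest. The difference was 0.12 (95% interval from -0.18 to 0.42, limma adjusted p = 0.603), and it was -0.025 without WT replicate 3. S1pr3 and S1pr5 each reached the array median in 1 array only, a WT and a Runx3-/- array respectively, so that their values are a description, and S1pr2 in 0. S1pr5, the S1P receptor of natural killer cell egress, gave 3.19, 2.83 and 3.14 (WT) against 4.11, 3.38 and 3.43 (Runx3-/-), without overlap (difference 0.59, adjusted p = 0.0947). S1pr3 gave 3.20, 3.39 and 3.96 (WT) against 2.79, 2.89 and 2.76 (Runx3-/-) (difference -0.70, adjusted p = 0.0418). This call was lost under 8 of 14 alternatives, among them without a filter on signal (0.0752), with a filter at the 25th percentile (0.0551), without moderation (0.198), without WT replicate 2 (0.0676) and without Runx3-/- replicates 1, 2 or 3 (0.0926, 0.0944 and 0.119).

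Gpr183 (EBI2), the oxysterol receptor, gave 7.55, 7.83 and 7.79 (WT) against 6.99, 7.81 and 7.68 (Runx3-/-). Runx3-/- replicate 1 stood below the other 5 arrays. The difference of -0.23 (95% interval from -0.70 to 0.24, adjusted p = 0.51) became 0.022 without that replicate.

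Among the orphan receptors without an agreed ligand, Gpr141b had the largest difference of those among the 19 that did not pass. It gave 6.15, 6.15 and 7.02 (WT) against 5.04, 5.96 and 5.21 (Runx3-/-), and the groups did not overlap. Its difference of -1.04 ± 0.29 (SE) had an adjusted p of 0.056, which was 0.0413 after quantile normalization, 0.0408 after median centring and 0.0322 without Runx3-/- replicate 2. Gpr146, known from the control of blood lipids in liver, gave 6.26, 6.02 and 5.68 (WT) against 6.41, 6.02 and 5.99 (Runx3-/-), with overlap (difference 0.15, adjusted p = 0.604). Its difference was 0.0027 without WT replicate 3 and 0.019 without Runx3-/- replicate 1. Gpr52 was the most uneven gene in Runx3-/- mice (SD 0.70), with 3.20, 3.58 and 3.45 (WT) against 3.39, 4.78 and 3.90 (Runx3-/-). It was kept through 1 WT and 2 Runx3-/- arrays, and its difference of 0.62 ± 0.30 (SE) did not pass (adjusted p = 0.23). That difference became 0.24 without Runx3-/- replicate 2 and 0.93 without Runx3-/- replicate 1.

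Of the 6 genes listed as proteins of inner membranes, none passed in limma, although Gpr107, Gpr89, Gpr137b-ps and Gpr155 had an unadjusted p under 0.05. Gpr89, the Golgi pH regulator, gave 6.43, 6.65 and 6.43 (WT) against 6.10, 6.28 and 6.01 (Runx3-/-) without overlap. Its difference of -0.37 ± 0.11 (SE) had an adjusted p of 0.0675, which was 0.0439 after quantile normalization. Gpr137b-ps gave 5.74, 5.44 and 6.00 (WT) against 4.13, 5.26 and 4.96 (Runx3-/-), also without overlap. Its difference of -0.94 ± 0.27 (SE) had an adjusted p of 0.0592, and of 0.0342 after quantile normalization, 0.0427 after median centring and 0.0432 without Runx3-/- replicate 2. Without Runx3-/- replicate 1, the lowest array, the difference was -0.62. This pseudogene and Gpr137b, a lysosomal membrane protein, resemble each other in sequence, so that their probe sets may share signal. Gpr137b itself was at the array median in 2 WT arrays only, which makes its values a description (difference -0.57, adjusted p = 0.0487), and its call was lost under 10 of 15 alternatives, among them leaving out WT replicates 1 or 3 (adjusted p = 0.136 and 0.108) or Runx3-/- replicates 1, 2 or 3 (0.114, 0.0682 and 0.102). Gpr155, a lysosomal cholesterol sensor, gave 4.38, 4.55 and 4.52 (WT) against 4.71, 4.83 and 4.63 (Runx3-/-), a difference of 0.24 without overlap (adjusted p = 0.149). Gpr107, a Golgi protein, gave 6.73, 6.52 and 6.35 (WT) against 6.84, 6.95 and 6.71 (Runx3-/-), a difference of 0.30 with overlap (adjusted p = 0.149). Its relative Gpr108 gave 5.85, 5.98 and 5.76 (WT) against 5.93, 6.00 and 5.47 (Runx3-/-), with overlap (difference -0.06, 95% interval from -0.40 to 0.28). Gpr180 gave 3.77, 3.92 and 3.94 (WT) against 3.86, 3.89 and 4.16 (Runx3-/-), near the array median and with overlap (difference 0.09, 95% interval from -0.16 to 0.35). The signs of Gpr108 and Gpr180 turned with 1 array left out. B cell and macrophage markers were lower in the same arrays as Gpr141b and Gpr137b-ps. The dendritic cell list averaged 5.46, 5.41 and 6.07 (WT) against 4.89, 5.51 and 4.84 (Runx3-/-). It was highest in WT replicate 3 and Runx3-/- replicate 2, as were both genes. The part of any of these cells in the values was not tested.

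In all, 9 of the 19 genes had groups that did not overlap, in 5 cases lower without Runx3 and in 4 higher, where 33.6% of all tested genes did not overlap. The study's methods state a 1.5-fold change, a p under 0.05 and a signal above background for its gene lists, without saying whether p was adjusted. With p before adjustment, and with the filter at the array median in place of a call above background, 4 of the 19 genes were lower (Cnr2, Gpr15, Gpr141b and Gpr137b-ps), where 4.95% of all tested genes were, and 0 were higher, against 3.12%. Gpr15, whose direction the filter fixed, is among these 4 and among the 5 lower genes without overlap. Gpr174 and Gpr132 stayed just under 1.5-fold.

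Just inside the signal threshold lay Gpr15 and Gpr52, each at or above the median in 3 arrays. Just outside were Gpr35, Gpr19 and Gpr137b, each at or above it in 2 WT arrays and in 0 Runx3-/- arrays. Gpr35 read 3.54 in WT and 3.47 in Runx3-/- arrays on average, Gpr19 3.52 and 3.39, and Gpr137b 3.72 and 3.14. The 46 genes under the median in all arrays included S1pr2, the acid sensor Gpr4, the medium-chain fatty acid receptor Gpr84, Gpr119, Gpr1, Gpr25, Gpr137 and Gpr137c, and 38 further genes with a Gpr number. A signal under the median may lie close to background, and no detection call was used here.

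The nearest tested genes on either side of the 4 receptors in the RefSeq gene order were also read. They lay from 0.507 kb (Fuca1) to 100 kb (Itm2a) away, and genes that were not tested were passed over. On either side of Cnr2, Pnrc2 gave -0.44 (limma adjusted p = 0.0411) and Fuca1, a lysosomal fucosidase, gave -0.53 (adjusted p = 0.0929), against -1.94 for Cnr2. The Pnrc2 call was lost without moderation of variances (adjusted p = 0.142), without WT replicates 1, 2 or 3 (0.131, 0.101 and 0.0516) and without Runx3-/- replicates 2 or 3 (0.0845 and 0.0993). Next to Gpr15, Cpox, an enzyme of heme synthesis, fell by 0.79 (adjusted p = 0.0108) and Cldnd1 fell by 0.58 (adjusted p = 0.0104). Next to Gpr174, P2ry10b gave -0.15 and Itm2a 0.36 (adjusted p = 0.592 and 0.0818), and Itm2a passed with array weights (0.044) and without WT replicate 3 (0.0445). Neither neighbour of Gpr132 passed. Cpox and Cldnd1 lost their calls under 1 of 16 alternatives, the fit without moderation of variances (adjusted p = 0.115 and 0.0774).

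The partners of these receptors inside and around the cell were taken from lists. In the fit without moderation of variances none of the calls below remained (adjusted p from 0.0515 to 0.148 for the genes that are named). Of 14 tested G protein subunits, 2 fell and 0 rose, with a median of -0.10, beside the 6.00% of all tested genes that were lower and the 5.63% that were higher. Gna12, the alpha subunit of G12, fell by 0.97 ± 0.12 (SE, limma adjusted p = 0.00195), and Gnaq, the alpha subunit of Gq, fell by 0.50 (adjusted p = 0.025). Gnaq lost its call without moderation of variances (0.116), without WT replicates 1 (0.0682) or 3 (0.0546) and without Runx3-/- replicates 1 (0.0698) or 3 (0.0762). The remaining 12 subunits did not pass.

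Of 25 tested effectors, receptor kinases and arrestins, 6 fell and 1 rose, where 6.00% of all tested genes were lower and 5.63% higher, with a median of 0.04. Adcy6, an adenylyl cyclase that makes cyclic AMP, rose by 1.68 ± 0.22 (SE, adjusted p = 0.0023). Prkar2a, a regulatory subunit of the cyclic AMP-dependent kinase, fell by 1.01, Pde7a, a cyclic AMP phosphodiesterase, fell by 0.68, and Arhgef12, an effector of G12 and G13, fell by 0.65, with adjusted p of 0.0141 or lower. Arhgef12 lost its call without Runx3-/- replicate 2 (adjusted p = 0.055). These genes act on the pathways to which the receptors couple, and a link to any 1 receptor was not tested.

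Of 16 tested enzymes and transporters of the lipid ligands, 3 fell and 1 rose, again beside 6.00% and 5.63% of all tested genes, with a median of -0.08. Faah, which breaks down the endocannabinoid anandamide, rose by 0.84 ± 0.13 (SE, adjusted p = 0.0051). Plpp3 and Plpp1, phosphatases that break down S1P and lysophosphatidic acid, fell by 1.04 and 0.82, and Pla2g4a, the phospholipase that frees arachidonic acid, fell by 0.46, at adjusted p of 0.0187 or lower. All 3 reached the array median in WT arrays only, so that the filter fixed their direction and their falls are a description. Plpp1 lost its call without Runx3-/- replicate 1 (0.0561) or 2 (0.0597), and Pla2g4a without WT replicate 1 (0.061) or Runx3-/- replicate 2 (0.054). Among 10 members under the array median throughout were Ch25h, Cyp7b1 and Hsd3b7, the enzymes that make and remove the oxysterol ligand of Gpr183.

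Of 7 tested related receptors outside the naming rule, P2ry13, a receptor for ADP, fell by 1.33 ± 0.20 (SE, adjusted p = 0.00495), and 0 rose, also beside 6.00% and 5.63%, with a median of -0.15. P2ry13 too was at the array median in the 3 WT arrays only. S1pr1, the S1P receptor of lymphocyte egress, gave 0.13 (adjusted p = 0.626), and -0.035 without WT replicate 3. S1pr1 and P2ry10 were named after their values were seen. B cell and macrophage markers fell in the same arrays, and regulatory T cell markers rose. Their part in the falls and rises of these partners, Adcy6 and Faah included, was not tested.

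**Figure D4:**
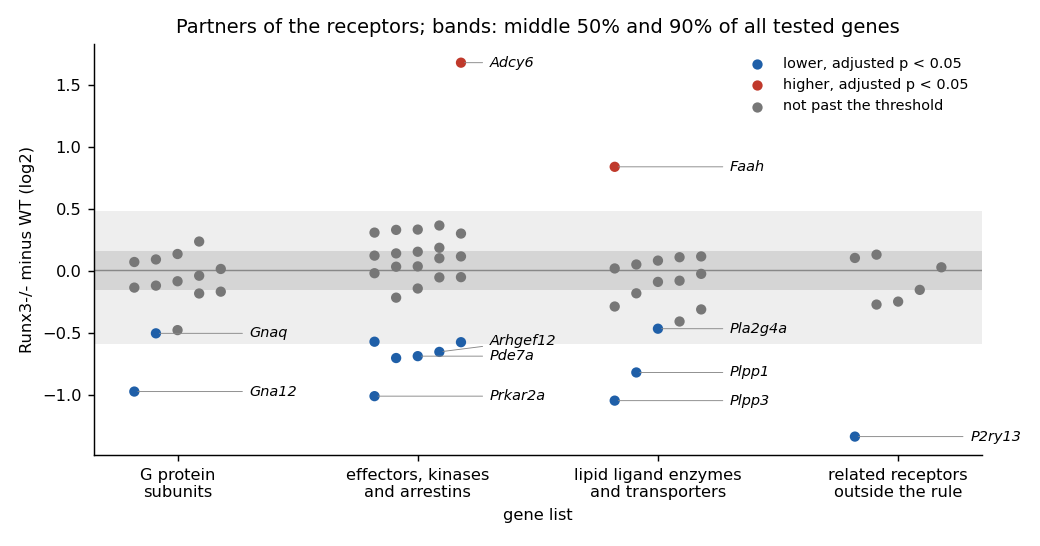
Difference between genotypes (vertical axis, Runx3-/- minus WT, log2) of each tested gene in 4 lists of receptor partners (horizontal axis, points spread sideways for legibility), with up to 4 genes of lowest p named. Grey bands run from the 25th to the 75th and from the 5th to the 95th percentile of all 9924 tested genes (the wider from -0.59 to 0.48). Most partners lie within the wider band, with Adcy6 at 1.68 and P2ry13 at -1.33 furthest outside. Gna12, Prkar2a, Pde7a, Arhgef12, Grk3, Faah, Plpp3 and Plpp1 also lie outside it.

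**Figure D5:**
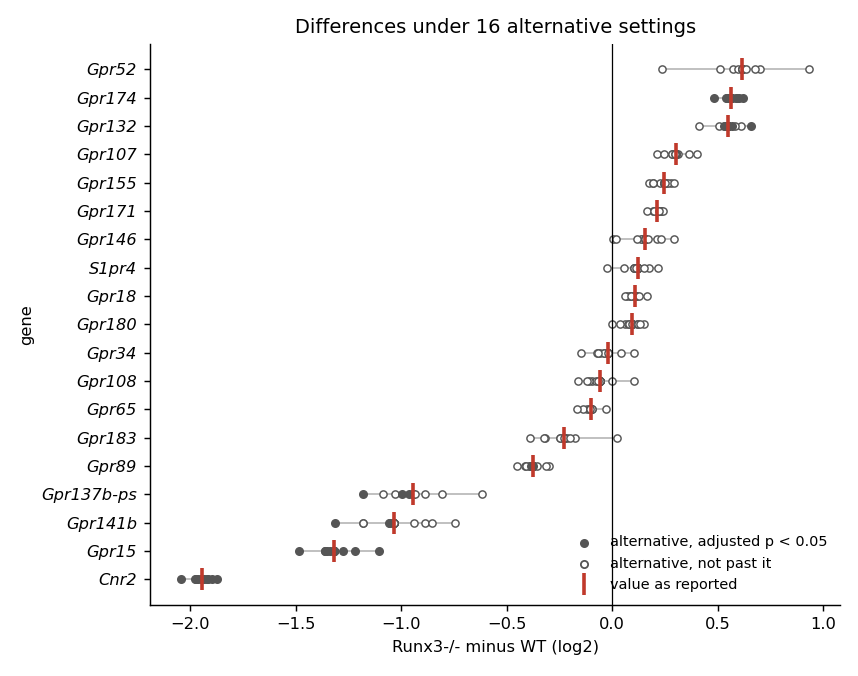
Difference between genotypes (horizontal axis, log2) of the 19 genes (vertical axis) as reported (red bar) and under 16 alternative settings (circles, filled where the adjusted p was under 0.05). Cnr2 stays filled throughout, between -2.04 and -1.87, while Gpr132 has filled and open circles and Gpr183 and S1pr4 cross 0.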

How the data were processed

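RNA of CD8-TC from 3 WT and 3 Runx3-/- mice had been hybridized to Affymetrix mouse Gene ST 1.0 arrays. The deposited values are log2 signals, which the authors made in Partek Genomics Suite by RMA with GC correction. The software version and genome build behind the values were not given in the sources used here. Signals were used without further normalization. Array medians lay between 3.45 and 3.53, arrays of a genotype correlated at 0.985 or above and those of different genotypes at 0.971 or below (across genes, which are not independent replicates). The number of arrays limits the precision.

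Genes were named through GEO's platform annotation, which paired 21789 probe sets with 1 symbol, 1621 with several and 11989 with none. The brightest probe set stood for a gene, and 9924 genes that reached the array median in at least 1 array were tested with limma 3.58.1 (R 4.3.3; lmFit, eBayes, no covariates, two-sided), with Benjamini-Hochberg adjustment over all of them. The script was tested on simulated data, where 38.4% of log2 differences of 0.5, 87% of 1 and 99.2% of 2 passed the threshold. A gene not past it is thus not shown to be unchanged. Errors are SD over n = 3 mice or SE from limma. Full values were given for members past an adjusted p of 0.05 and the 5 with the highest WT signal, and those of the other members and of receptors near the threshold were added after they were seen. In partner lists the up to 4 genes of lowest p were named. Signal served for the filter and for choosing probe sets and the 5 members with the highest WT signal. It was not read as abundance, of which a probe's brightness is no measure. The members and all lists were chosen with earlier results of these data known. Alternatives covered the filter, scaling, probe sets, moderation, array weights, a replicate block, the call rule and each array left out.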

Additional observations from a re-analysis of the deposited data

How the results depend on the processing

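Of the 304 values that 16 alternatives gave for the 19 receptors, 280 kept direction and side of the threshold, 9 lost the call, 8 gained it and 7 changed sign. The counts of genes past the threshold moved as follows. Receptor genes lower were 5 after quantile normalization, 4 after median centring, 4 by 1.5-fold and unadjusted p, 1 without moderation of variances, and from 2 to 4 with 1 array left out (4 without Runx3-/- replicate 2). Receptor genes higher were 1 without a filter on signal, 0 without moderation, 0 by 1.5-fold and unadjusted p, and from 1 to 2 with 1 array left out. Over all tested genes, 92 were lower and 86 higher without moderation, 310 were higher by 1.5-fold and unadjusted p, and 323 to 500 were lower and 232 to 436 higher with 1 array left out. Without moderation, every partner list had 0 lower and 0 higher. G protein subunits lower were 1 by 1.5-fold and unadjusted p and 1 to 2 with 1 array left out, effectors higher were 2 with trend and robust moderation and 2 with the replicate block, and ligand enzymes lower were 1 to 3 with 1 array left out. Effectors lower were 4 without a filter on signal, 4 by 1.5-fold and unadjusted p, and 4 to 5 with 1 array left out. The cause of these moves was not tested, though leaving out an array or the moderation also lowers precision.

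Sign changes came with 1 array left out and at small differences. The ranges over these fits were -0.1496 to 0.104 for Gpr34 and -0.1608 to 0.1045 for Gpr108, -0.0036 to 0.1484 for Gpr180, -0.3885 to 0.022 for Gpr183, -0.025 to 0.2153 for S1pr4, -0.035 to 0.2519 for S1pr1, -0.0265 to 0.1858 for P2ry10 and -0.012 to 0.2778 for Runx3. Same-numbered mice deviated together at 0.18, 0.032 and -0.00014, so the numbers were not taken as pairs. With the replicate block 3 receptor genes were lower, Gpr89 (adjusted p = 0.0449) beside Cnr2 and Gpr15, and 2 higher. With the same block S1pr3 (adjusted p = 0.061) and Gpr137b (0.0787) lost their calls, and no other named gene's call changed.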
